A study of Oncorhynchus tshawytscha with 17 samples.

Results

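The genes described here serve the uptake of bile acids and fatty acids in the intestine of Chinook salmon (Oncorhynchus tshawytscha). They were taken by name: 3 of the 42554 named genes in the deposited count table, namely slc10a2 and the identifiers LOC112259392 and LOC112231678, to which the RefSeq gene table of assembly Otsh_v2.0 gives the symbols fabp6 and fabp2. Each symbol stood on 1 entry of the table. The samples were hindgut, labelled as epithelia of diploid fish, from 17 fish in 3 groups. There were 6 untreated controls (ctl12A, ctl12B, ctl12C, ctl35A, ctl35B, ctl35C), 5 fish given antibiotics for 10 days (abx67A, abx67B, abx67C, abx91A, abx91B) and 6 fish given probiotics for 10 days (pro115A, pro115B, pro115C, pro139A, pro139B, pro139C). Agents, doses and ages are not stated in the labels. Names join the group to the number and letter in the library titles. What the numbers stand for, such as a tank, is not stated. The p-values below set differences against the spread between libraries and treat each library as independent. If fish of the same number shared a tank, these p-values could be too small.

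Bile acids are made in the liver, stored in bile, released to dissolve dietary fat and then recovered by the distal intestine, from where they return to the liver. The protein encoded by slc10a2 is the sodium-dependent carrier of the brush border that brings bile acids into the enterocyte. Fabp6 binds them inside the cell, and in mammals the exporter formed by Slc51a and Slc51b passes them on to the blood. Fabp2 binds long-chain fatty acids taken up from the gut lumen and, in mammals, is a protein of absorptive enterocytes. In mammals bile acids also activate the nuclear receptor Nr1h4, which raises Fabp6 and the hormone Fgf19, so these genes are a common readout of how bile acids reach the gut wall. Bacteria of the gut modify bile acids, which is why the genes are of interest where microbes are removed or added.

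In the deposited table slc10a2 lies on the minus strand of sequence NC_037122.1 from 15575219 to 15580643 and has 6 exons that sum to 2441 bases. The gene fabp6 lies on the plus strand of NC_037105.1 from 65463684 to 65465052, with 4 exons and 544 exon bases. The gene fabp2 lies on the plus strand of NC_037130.1 from 1030910 to 1032872, with 4 exons and 687 exon bases. The genome build of these positions is not given in the sources used here, and they were set against no other build. No other entry overlapped any of the 3 genes, and the closest one was 1668 bases from slc10a2, 4448 bases from fabp6 and 3414 bases from fabp2. Salmonids kept many gene copies from a genome duplication. How reads shared between copies were counted is not stated, and copies that carry no symbol were not analysed here.

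Libraries held 38.1 to 56.7 M (1e6) counts in controls, 39.9 to 59.4 M in antibiotic fish and 28.6 to 61.1 M in probiotic fish. All 10 tested absorptive enterocyte markers, among them villin (vil1) and the brush border peptidase meprin (mep1a.2), had counts in every fish, and their summed level ran from 4807 to 7615 counts per 1e6 counts (CPM) in controls, 5134 to 7532 in antibiotic fish and 5182 to 7274 in probiotic fish. Genes of other tissues were present as well. Of 10 smooth muscle symbols 3 had an entry. The summed level of these 3 markers was 373 to 1340 CPM in controls, 326 to 829.1 CPM in antibiotic fish and 284 to 735 CPM in probiotic fish. Which cells these transcripts came from was not tested. The sum of 10 liver markers was 6.98 to 14.9 CPM in controls, 6.09 to 140.5 CPM in antibiotic fish and 6.68 to 72.1 CPM in probiotic fish. Of the 10, 7 had counts in every fish. All 10 had edgeR fold changes above controls in both treatments. At an unadjusted p under 0.05 stood 6 in antibiotic and 2 in probiotic fish, against 6.21% and 9.71% of all tested genes (edgeR). At an adjusted p under 0.05 there were 0. Scarce markers can pass the expression filter through treated fish alone. For hpxb and plg, controls reached 0.22 and 0.18 CPM and antibiotic fish 8.9 and 4.05 CPM. The counts of 10, 6 and 2 are therefore a description and no test of the liver markers. Fish differed widely: mean log2 CPM of the 10 markers was -1.42 to -0.31 in controls and -1.155 to 1.95 in probiotic fish. Antibiotic fish ran from -2.17 in abx91A to 3.265 in abx67C, the lowest and the highest of the series. The part of these markers in the results was not tested. Of 9 exocrine pancreas symbols 6 had no entry. The sum of 2 tested markers was 8.01 to 51.3 CPM in controls, 5.57 to 33.1 CPM in antibiotic fish and 6.60 to 288 CPM in probiotic fish. Their mean log2 CPM was highest in pro139C, at 6.74.

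Both bile acid genes were among the most abundant transcripts of the salmon hindgut, and the entry named fabp2 was far scarcer. Levels are those of 1 entry per symbol and leave out any copies that carry no symbol. Per kb of exon, fabp6 averaged 4449 CPM over 17 fish and ranked 5 among the 30221 genes tested. The carrier slc10a2 averaged 832 CPM per kb and ranked 62. The gene fabp2 averaged 57.4 CPM per kb and ranked 1357. Mean fabp6 was thus 5.35 times mean slc10a2 per kb, and fabp6 was the higher of the pair in 17 of 17 fish, by 1.68 to 15.1 times. Mean slc10a2 was 14.5 times mean fabp2 per kb, by 3.05 to 50.8 times in single fish. Single libraries held 29840 to 278951 counts for fabp6, 55670 to 158409 for slc10a2 and 683 to 7667 for fabp2, so counting error was small beside the differences among fish.

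**Figure D1:**
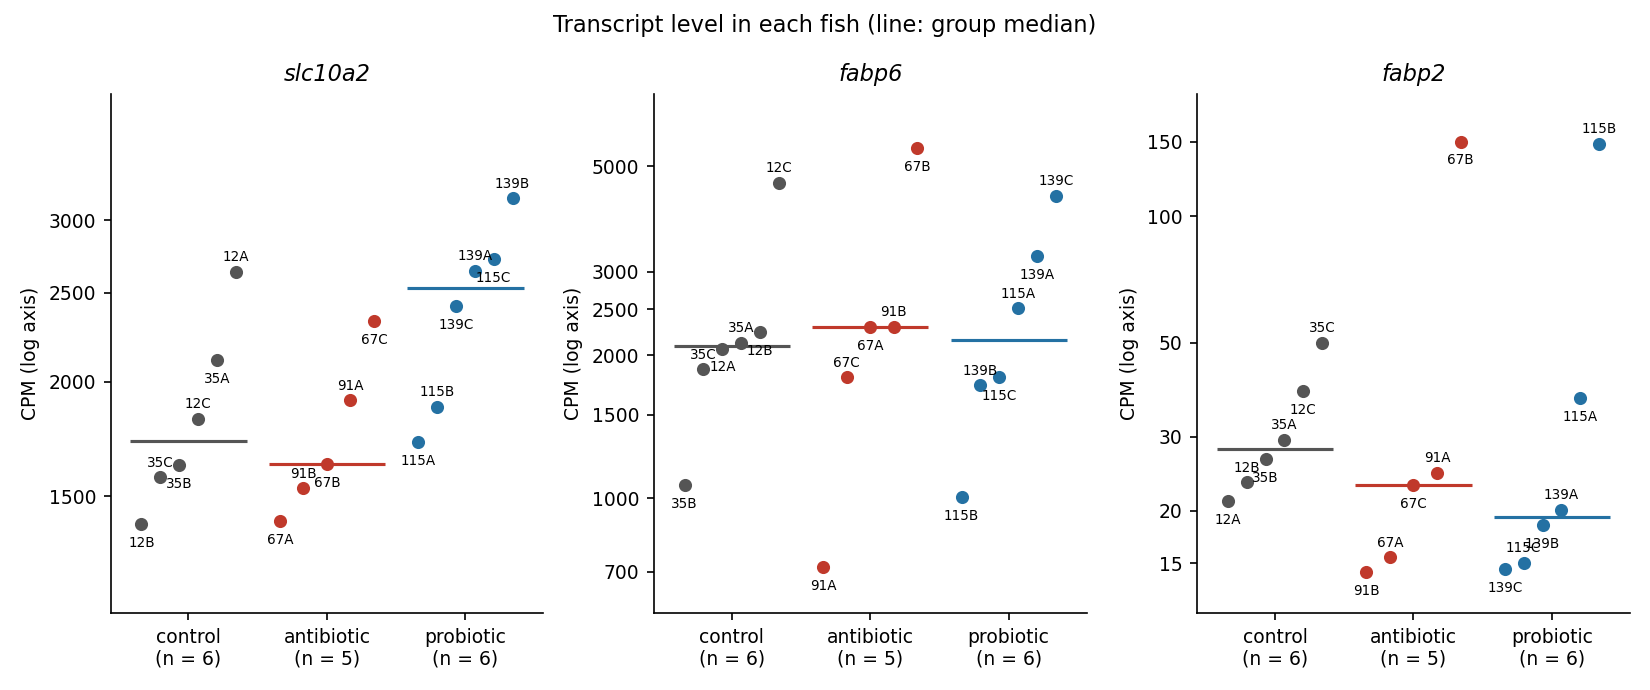
Level of slc10a2, fabp6 and fabp2 in CPM (log axes) in each of 17 fish, by group. Each point is 1 fish with its title number and letter, and lines are group medians. Groups overlap for all 3 genes, and abx67B and pro115B stand above all other fish for fabp2.

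The bile acid carrier slc10a2 was the steadiest of the 3 genes among fish. In controls it stood at 1398 CPM at the lowest, 1723 CPM at the median and 2636 CPM at the highest, and the highest fish was ctl12A. The antibiotic fish abx67A, abx91B, abx67B, abx91A and abx67C were at 1408, 1531, 1625, 1910 and 2329 CPM, all within the control range. Probiotic fish ran from 1718 CPM through a median of 2531 CPM to 3173 CPM. Of them, pro115C, pro139A and pro139B lay above every control. Probiotic fish averaged 2425 ± 546 CPM (SD, n = 6). Controls averaged 1861 ± 451 CPM (SD, n = 6), and antibiotic fish 1761 ± 368 CPM (SD, n = 5). The highest and lowest fish differed 2.27-fold, and 65.4% of tested genes had a larger SD within groups than the 0.32 log2 units of slc10a2. This share covers genes of every level, scarce ones included, and genes of similar level were not compared. Differences in the number of enterocytes and in RNA per enterocyte cannot be told apart in bulk samples such as these.

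Probiotic fish had the most slc10a2, but the difference did not pass the test in either comparison. Against controls the log2 fold change was 0.38 ± 0.18 (SE), or 1.3-fold, with an interval (95%) of -0.001 to 0.77 (edgeR p = 0.0506, adjusted p = 0.516; exact permutation of fish, 2-sided, p = 0.0758). Antibiotic fish stood below probiotic fish at a log2 fold change of -0.46 ± 0.19, or 0.726-fold, with an interval of -0.87 to -0.058 (edgeR p = 0.0273, adjusted p = 0.795, exact permutation p = 0.0476). In this comparison 4 of 6 probiotic fish exceeded every antibiotic fish. Antibiotic fish and controls differed by -0.08 ± 0.19 on the log2 scale, with an interval of -0.48 to 0.32 (edgeR adjusted p = 0.957). Within the probiotic group pro139A, pro139B and pro139C were at 2419 to 3173 CPM, and pro115A, pro115B and pro115C at 1718 to 2719 CPM.

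None of the 3 genes was called at an adjusted p under 0.05 in any comparison, where edgeR called 0 of 30221 genes (0%) in each. At an unadjusted p under 0.05 stood 0 of the 3 genes between antibiotic fish and controls, against 6.21% of all tested genes. The count was 0 between probiotic fish and controls, against 9.71%, and 1, slc10a2, between antibiotic and probiotic fish, against 6.05%. Groups of fish overlapped in all 3 genes in each comparison. Over all tested genes the share without overlap was 0.483% between antibiotic fish and controls, 0.291% between probiotic fish and controls and 0.374% between antibiotic and probiotic fish. The comparisons share fish and are therefore not independent of each other.

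The libraries can also be sorted by the column of the index plate well that the titles name. For abx67C the title names different wells for the paired indexes, and column 9, which stands in both, was used. In the 4 columns, 9 to 12, probiotic fish exceeded controls in slc10a2 by 0.004, 0.52, 0.63 and 0.30 on the log2 scale, with 1 or 2 fish of a group in each. Antibiotic and probiotic fish met in columns 9 and 12, where the difference was -0.55 and -0.53 on the log2 scale. Each of these values rests on 1 probiotic fish, pro139A in column 9 and pro139C in column 12. Both fish carry the same title number, the one with the higher mean slc10a2 among probiotic fish. The values are therefore not independent repeats, and the part of the title number in them was not tested. With the column as a factor in edgeR, the difference of probiotic fish from controls was 0.45 ± 0.18 (adjusted p = 0.296) and that of antibiotic from probiotic fish -0.67 ± 0.22 (adjusted p = 0.258).

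The bile acid binding gene fabp6 varied widely from fish to fish, and no difference between groups passed the test. Controls ran from 1067 CPM in ctl35B through a median of 2095 CPM to 4609 CPM in ctl12C. The antibiotic fish abx91A, abx67C, abx67A, abx91B and abx67B were at 717, 1799, 2291, 2297 and 5466 CPM, which holds both the lowest and the highest fish of the series. Probiotic fish ran from 1007 CPM in pro115B through a median of 2156 CPM to 4327 CPM in pro139C. The ranges of the 3 groups overlapped, and the antibiotic range was the widest. The full range was 7.63-fold, and 15.8% of tested genes had a larger SD within groups than the 0.82 log2 units of fabp6. Here too the share covers genes of every level.

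Mean fabp6 was 2328 ± 1194 CPM in controls (SD, n = 6) and 2514 ± 1771 CPM in antibiotic fish (SD, n = 5). In probiotic fish it was 2434 ± 1197 CPM (SD, n = 6). The log2 fold change against controls was 0.11 ± 0.45 in antibiotic fish, with an interval of -0.83 to 1.05 (edgeR adjusted p = 0.977). It was 0.064 ± 0.43 in probiotic fish, with an interval of -0.83 to 0.96 (edgeR adjusted p = 0.971). Between antibiotic and probiotic fish it was 0.046 ± 0.45, with an interval of -0.89 to 0.99 (edgeR adjusted p = 0.995). The intervals take in changes down to between -0.89 and -0.83 and up to between 0.96 and 1.05 on the log2 scale, so they leave the direction undetermined. The direction rested on single fish: without abx67B, fabp6 was lower in antibiotic fish by -0.40 against controls and by -0.46 against probiotic fish, and without pro139C it was lower in probiotic fish by -0.18 against controls. Within index columns 9 and 12, antibiotic fish differed from controls by -0.025 and -0.59 and from probiotic fish by -0.67 and -1.06. The probiotic side held 1 fish in each of these columns, and the control side 1 and 2. Probiotic fish differed from controls by 0.65, -0.47, 0.43 and 0.47 in columns 9 to 12.

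The fatty acid binding gene fabp2 was low in most fish and high in a pair from different treatments. Antibiotic fish abx67B had 150 CPM and probiotic fish pro115B 148 CPM, while the other 15 fish stood at 14.3 to 50.1 CPM. Controls ran from 21.1 CPM in ctl12A through a median of 27.98 CPM to 50.1 CPM in ctl35C. The other antibiotic fish, abx91B, abx67A, abx67C and abx91A, were at 14.3, 15.5, 23.0 and 24.6 CPM. Probiotic fish pro139C, pro115C, pro139B and pro139A were at 14.5, 15.1, 18.5 and 20.1 CPM and pro115A at 37.0 CPM. Thus 2 antibiotic and 4 probiotic fish lay below every control, while 1 antibiotic and 1 probiotic fish, the high pair, lay above every control. These counts were not tested.

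With all fish, mean fabp2 was 31.5 ± 10.9 CPM in controls (SD, n = 6). It was 45.5 ± 58.7 CPM in those given antibiotics (SD, n = 5) and 42.3 ± 52.7 CPM in those given probiotics (SD, n = 6). The log2 fold changes against controls were 0.53 ± 0.67 in antibiotic fish (edgeR adjusted p = 0.918) and 0.42 ± 0.65 in probiotic fish (edgeR adjusted p = 0.841), with intervals of -0.89 to 1.95 and -0.94 to 1.78. Antibiotic and probiotic fish differed by 0.11 ± 0.67, with an interval of -1.31 to 1.53 (edgeR adjusted p = 0.992). DESeq2 gave fabp2 a fold change but no p in any comparison, so it could not call this gene. Leaving out abx67B and pro115B, a step chosen after their values were seen, turned the direction against controls in both treatments. The means were then 19.4 ± 5.22 CPM in those given antibiotics (SD, n = 4) and 21.1 ± 9.24 CPM in those given probiotics (SD, n = 5). The log2 fold changes against controls were -0.71 ± 0.29 (edgeR adjusted p = 0.795) and -0.58 ± 0.27 (edgeR adjusted p = 0.291). Within index columns 9 and 12, antibiotic fish with all fish kept differed from controls by -0.15 and 0.16 and from probiotic fish by -0.089 and 1.37. The probiotic side held 1 fish in each of these columns, and the control side 1 and 2. Probiotic fish differed from controls by -0.065, -0.082, 0.074 and -1.21 in columns 9 to 12.

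**Figure D2:**
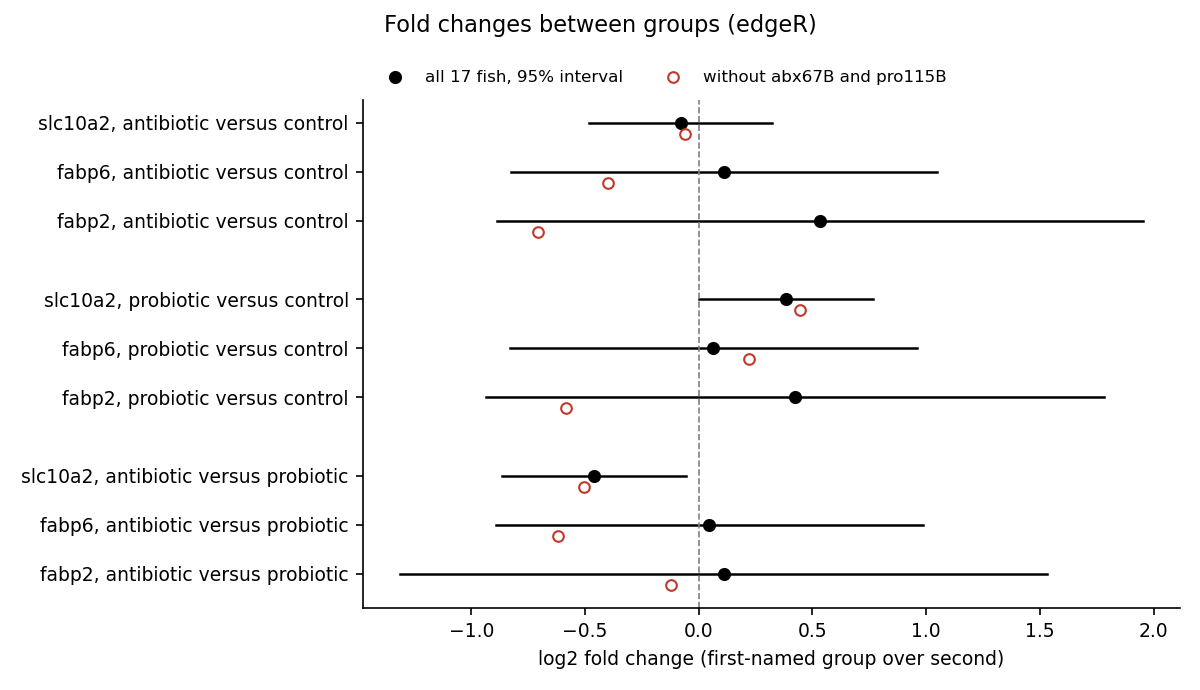
Log2 fold changes of slc10a2, fabp6 and fabp2 in the 3 comparisons, first-named group over second, from edgeR. Black points with lines are estimates from all 17 fish with 95% intervals, and open red points are estimates without abx67B and pro115B, shown without intervals. Removing the pair moves fabp2 against controls from above to below 0 in both treatments and turns fabp6 below 0 in antibiotic fish against both other groups and fabp2 below 0 between the treatments. It leaves slc10a2 on the same side in all 3 comparisons.

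The pair with high fabp2 stood near opposite ends of the series in fabp6. Fish abx67B had the highest fabp6 of all fish and pro115B the second lowest, at 5466 and 1007 CPM. In slc10a2 they were at 1625 and 1878 CPM, within the middle of the series. The library of pro115B was the shallowest at 28.6 M counts and that of abx67B held 52.8 M. Mean log2 CPM of absorptive enterocyte markers was 9.012 in abx67B, the highest of the series, and 8.51 in pro115B, against 8.32 to 9.007 in the other 15 fish. Of 10 leukocyte symbols 6 had no entry, and the cd79a entries averaged only 0.51 and 0.285 CPM. The leukocyte score of 5 markers was 2.31 in pro115B, the highest of the series, and 2.14 in abx67B, against 0.99 to 2.19 in the other fish. Scores of liver (0.85 and 0.010), exocrine pancreas (2.15 and 1.85), adipocyte (4.06 and 3.81), erythrocyte, goblet cell, smooth muscle and lysosome-rich enterocyte markers lay within the range of the other 15 fish in both. Over all 17 fish, fabp2 was correlated with slc10a2, fabp6 and the absorptive, lysosome-rich and smooth muscle scores, and none passed (below). The part of depth and of the other scores in the fabp2 level was not tested.

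No correlation among the 3 genes across fish passed the test. Over 17 fish, Pearson's r of log2 CPM was -0.007 between slc10a2 and fabp6 (permutation p = 0.979, adjusted p = 0.979 over 12 relations; Spearman's rho -0.20, permutation p = 0.446). It was -0.31 between slc10a2 and fabp2 (permutation p = 0.232, adjusted p = 0.558; rho -0.29, permutation p = 0.261). Between fabp6 and fabp2 it was 0.042 (permutation p = 0.875, adjusted p = 0.955; rho -0.020, permutation p = 0.944). Without the 2 fish farthest from the median of the first-named gene, r was 0.092, -0.19 and -0.41 in the same order. The ratio of fabp6 to slc10a2 in CPM accordingly ran from 0.38 in abx91A to 3.36 in abx67B, with group medians of 1.10 in controls, 1.5 in antibiotic fish and 0.94 in probiotic fish.

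Of 9 relations of the genes to marker scores, that of fabp6 to smooth muscle was the only one to pass after adjustment. A score is the mean log2 CPM over the tested markers of a list. Fish with a higher smooth muscle score, from cnn1b, lmod1b and smtna, had less fabp6, with r = -0.68 (permutation p = 0.00279, adjusted p = 0.0335). Its rank correlation was weaker and did not pass, with rho = -0.49 (permutation p = 0.0468, adjusted p = 0.377). Without ctl35C and pro139C, the fish farthest from the median score, r was -0.71 (permutation p = 0.0034), and for deviations from group means it was -0.72 (permutation p = 0.00116). In the 13 fish other than abx67C, abx91B, pro139B and pro139C it was -0.64 (permutation p = 0.0191, adjusted p = 0.125). Index column 12, the only one with 6 fish, gave r = -0.94 (exact permutation p = 0.00833, adjusted p = 0.1, which did not pass), and the other columns held too few fish. With the absorptive enterocyte score fabp6 had r = 0.59 (permutation p = 0.0127, adjusted p = 0.0764; rho 0.45, permutation p = 0.073), and slc10a2 had r = 0.48 (permutation p = 0.0548, adjusted p = 0.219; rho 0.39, permutation p = 0.126). The score of 13 lysosome-rich enterocyte markers had r of 0.11 with slc10a2, 0.10 with fabp6 and 0.25 with fabp2 (adjusted permutation p = 0.844, 0.844 and 0.688). The remaining r values were -0.33 for slc10a2 and -0.11 for fabp2 with smooth muscle and -0.099 for fabp2 with absorptive enterocytes (adjusted permutation p = 0.558, 0.844 and 0.844).

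**Figure D3:**
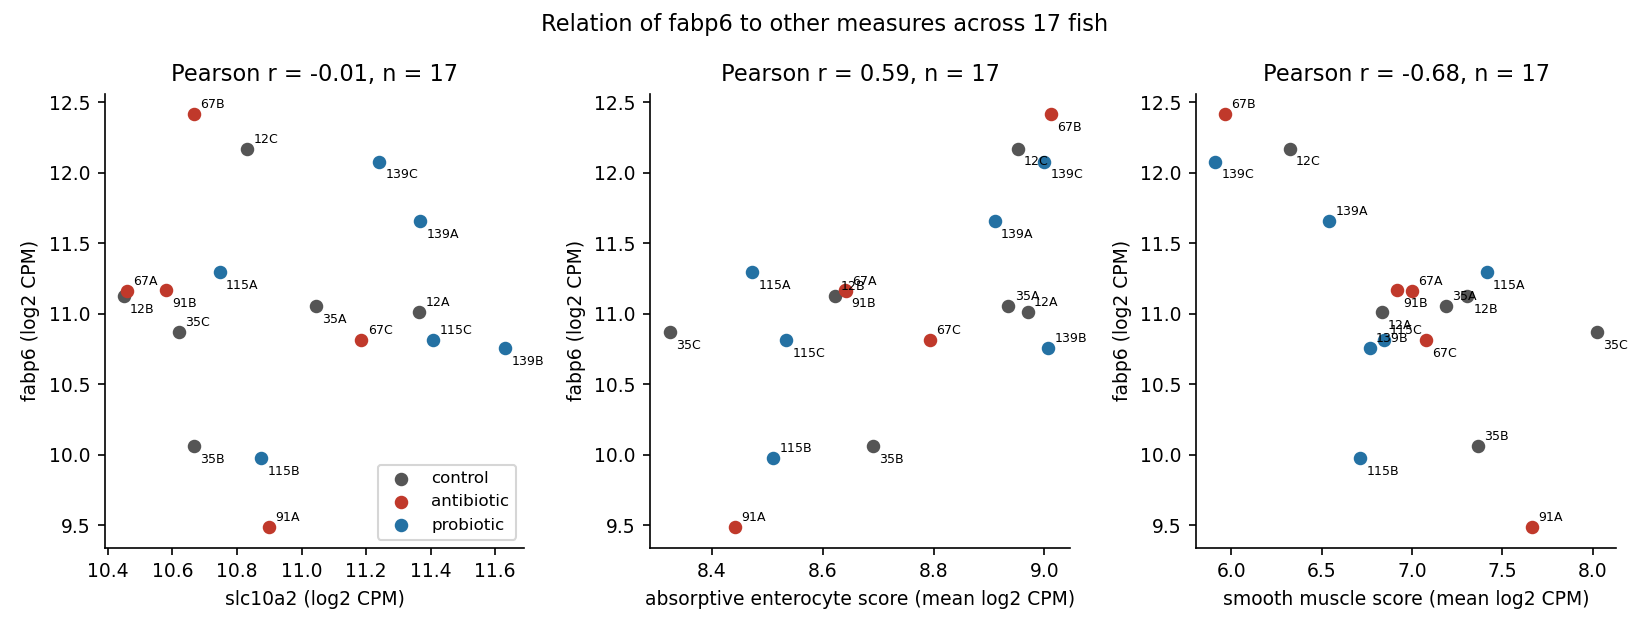
Log2 CPM of fabp6 in each of 17 fish against log2 CPM of slc10a2 (left), the absorptive enterocyte score (middle) and the smooth muscle score (right), coloured by group. Points carry the title number and letter, and r is -0.01, 0.59 and -0.68 from left to right.

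The smooth muscle score averaged 7.17 ± 0.57 in controls (SD, n = 6). It averaged 6.93 ± 0.61 in antibiotic fish (SD, n = 5) and 6.70 ± 0.49 in those given probiotics (SD, n = 6). With this score as a covariate in edgeR, the log2 difference of fabp6 from controls was -0.29 ± 0.34 in antibiotic fish (adjusted p = 0.874) and -0.36 ± 0.32 in probiotic fish (adjusted p = 0.909), and that of slc10a2 in probiotic fish was 0.33 ± 0.19 (adjusted p = 0.843).

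The genes whose levels ran most like each of the 3 were different ones. For slc10a2 the 5 closest by Pearson's r over 17 fish were LOC112265880 (r = 0.89), LOC112249095 (0.88), LOC112226231 (0.87), gnal, a G protein subunit gene (0.85, rho 0.92), and LOC112263456 (0.85). For fabp6 they were LOC112251562 (r = 0.95), txn, which encodes the redox protein thioredoxin (0.94, rho 0.91), LOC112263663 (0.93), LOC112220254 (0.93) and LOC112228266 (0.93). Of these txn ran from 38 to 160 CPM, and LOC112228266 from 860 to 14200 CPM. For fabp2 they were LOC112237043 (r = 0.85, rho 0.91), LOC112221325 (0.84), si:ch211-71n6.4 (0.84), LOC112255017 (0.82) and LOC112266900 (0.81). Fish abx67B and pro115B were the highest of all fish in LOC112237043 at 129 and 227 CPM, against at most 127 CPM in the others. Without that pair r was 0.88 for LOC112237043 and 0.57 to 0.73 for the other 4. An r over 0.8 was reached by 494 genes with fabp6, 10 with slc10a2 and 6 with fabp2. These values describe 17 libraries that share a depth scale, and the genes were picked for their r.

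Around the 3 genes, 6 lists of the pathway held 97 symbols, of which 48 had an entry and 49, such as nr1h4, slc51b, cd36 and mttp, had none under that symbol and were not analysed here. Other than slc10a2, fabp6 and fabp2, 46 genes were tested. Between antibiotic fish and controls 23 stood above and 23 below, with a median log2 fold change of 0.004 against 0.019 over all genes. Between probiotic fish and controls 28 stood above and 18 below, with a median of 0.042 against 0.005. Between antibiotic and probiotic fish 22 stood above and 24 below, with a median of -0.014 against 0.009. Over all tested genes 53%, 50.7% and 51.5% stood above in the same order. Of the 46, edgeR called 0 in each comparison. At an unadjusted p under 0.05 there were 2, 5 and 0 of the 46, against 6.21%, 9.71% and 6.05% of all tested genes (edgeR).

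**Figure D4:**
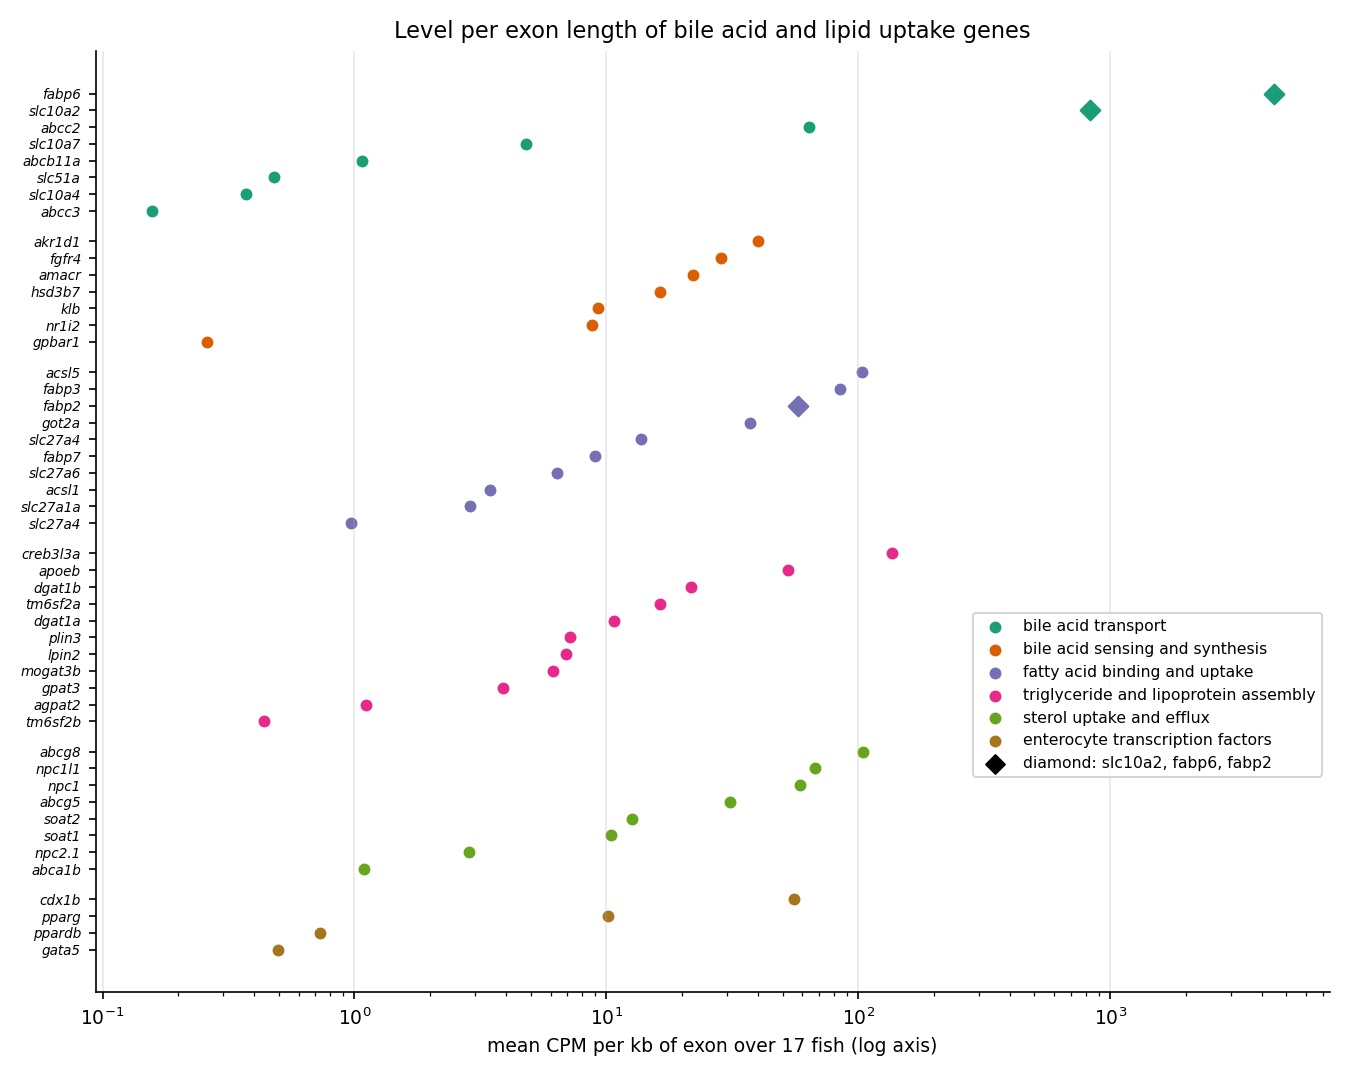
Mean level of tested genes of 6 lists over 17 fish, in CPM per kb of exon on a log axis, coloured by list. Diamonds mark slc10a2, fabp6 and fabp2: fabp6 at 4449 and slc10a2 at 832 lie above every other gene shown, and fabp2 at 57.4 lies among the fatty acid genes.

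In the list of bile acid transport, where 7 of 15 symbols had no entry, the remaining tested genes were much scarcer than slc10a2 and fabp6. The apical exporter abcc2 averaged 63.8 CPM per kb, and the SLC10 family member slc10a7 averaged 4.80. The entry named slc51a, a subunit of the basolateral bile acid exporter, averaged 0.48 CPM per kb, or 0.755 CPM, and the bile salt pump abcb11a averaged 1.07 CPM per kb. The exporter abcc3 had the smallest p of the list against controls in both treatments. It stood at 0.20 to 0.73 CPM in controls, 0.27 to 1.64 CPM in antibiotic fish and 0.10 to 2.19 CPM in probiotic fish, so its groups overlapped. Its log2 fold changes were 1.49 ± 0.58 in antibiotic fish (edgeR adjusted p = 0.803) and 1.90 ± 0.56 in probiotic fish (edgeR adjusted p = 0.446). Medians of the 8 tested genes were 0.13, 0.056 and 0.071 in antibiotic fish against controls, probiotic fish against controls and antibiotic against probiotic fish. In the last comparison slc10a2 had the smallest p.

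In the list of bile acid sensing and synthesis 10 of 19 symbols had no entry. The most abundant of its tested genes was akr1d1, a steroid reductase of bile acid synthesis, at 39.9 CPM per kb. Next were fgfr4, the receptor of Fgf19, at 28.6 and the peroxisomal racemase amacr at 21.99. The coreceptor klb averaged 9.30 CPM per kb and the bile acid receptor gpbar1 0.26. The hormone gene fgf19 and nr5a2 had too few counts to be tested. The xenobiotic and bile acid sensor nr1i2 had the smallest p against controls in both treatments, at 32.1 ± 6.13 CPM in controls (SD, n = 6). It was at 25.9 ± 5.22 CPM in those given antibiotics (SD, n = 5) and 24.3 ± 3.15 CPM in those given probiotics (SD, n = 6). Its log2 fold changes were -0.31 ± 0.15 (edgeR adjusted p = 0.803) and -0.40 ± 0.14 (edgeR adjusted p = 0.451). Between antibiotic and probiotic fish the smallest p was that of amacr, at 51.3 and 61.19 CPM (edgeR adjusted p = 0.936). Of 7 tested genes, 5, 4 and 4 stood above in the 3 comparisons, with medians of 0.19, 0.14 and 0.057.

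In the list of fatty acid binding and uptake 11 of 20 symbols, among them fabp1 and cd36, had no entry. Among its tested genes fabp2 ranked behind acsl5, which activates long-chain fatty acids, at 104 CPM per kb. It also ranked behind fabp3, a family member best known from muscle, at 84.2. The level of fabp7 was 8.97 CPM per kb and that of the fatty acid transport protein gene slc27a4 13.7 for its more abundant entry. With the smallest p against controls, fabp3 stood at 71.7 ± 18.6 CPM in controls (SD, n = 6), at 54.3 ± 12.8 CPM in those given antibiotics (SD, n = 5) and at 52.0 ± 14.4 CPM in those given probiotics (SD, n = 6). Its log2 fold changes were -0.40 (edgeR adjusted p = 0.816) and -0.47 (edgeR adjusted p = 0.496). Between the treatments acsl1, another fatty acid activating enzyme, had the smallest p, at 16.1 CPM in antibiotic and 12.96 CPM in probiotic fish (edgeR adjusted p = 0.893). Of 10 tested genes, 7, 6 and 6 stood above in the 3 comparisons, with medians of 0.11, 0.12 and 0.045.

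Of 20 symbols of genes that turn absorbed fatty acids into triglyceride and lipoproteins, 11 had no entry, among them apob, apoa1, apoa4 and mttp. The tested genes of this list were led by creb3l3a, a transcription factor of lipid metabolism, at 136 CPM per kb. The apolipoprotein gene apoeb followed at 52.6 and the acyltransferase gene dgat1b at 21.6. The smallest p against controls was that of creb3l3a, at 313 ± 65.9 CPM in controls (SD, n = 6). Antibiotic fish had 239 ± 33.9 CPM (SD, n = 5), and those given probiotics 215 ± 78.8 CPM (SD, n = 6). Its log2 fold changes were -0.39 ± 0.20 (edgeR adjusted p = 0.816) and -0.55 ± 0.19 (edgeR adjusted p = 0.454). Between the treatments apoeb had the smallest p, at 113 and 76.2 CPM (edgeR adjusted p = 0.888). Of 11 tested genes, 4, 8 and 4 stood above in the 3 comparisons, with medians of -0.027, 0.063 and -0.053.

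Sterol genes were led by the efflux transporter gene abcg8 at 105 CPM per kb, the cholesterol uptake gene npc1l1 at 67.5 and the lysosomal sterol carrier gene npc1 at 58.7. The smallest p belonged to npc2.1 between antibiotic fish and controls, at 3.02 and 3.996 CPM (edgeR adjusted p = 0.855). In the comparisons with probiotic fish it belonged to npc1, which averaged 304 CPM there, 364 CPM in controls and 352 CPM in antibiotic fish (edgeR adjusted p = 0.514 against controls and 0.857 between the treatments). Of 8 tested genes, 3, 4 and 3 stood above in the 3 comparisons, with medians of -0.11, 0.052 and -0.090. Among transcription factors of the enterocyte, cdx1b averaged 55.4 CPM per kb and the fatty acid sensor pparg 10.2. Between the treatments gata5 had the smallest p, at 1.23 and 1.72 CPM in antibiotic and probiotic fish (edgeR adjusted p = 0.911). Of the 5 tested factors 1, 3 and 2 stood above, with medians of -0.11, 0.011 and -0.023.

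**Figure D5:**
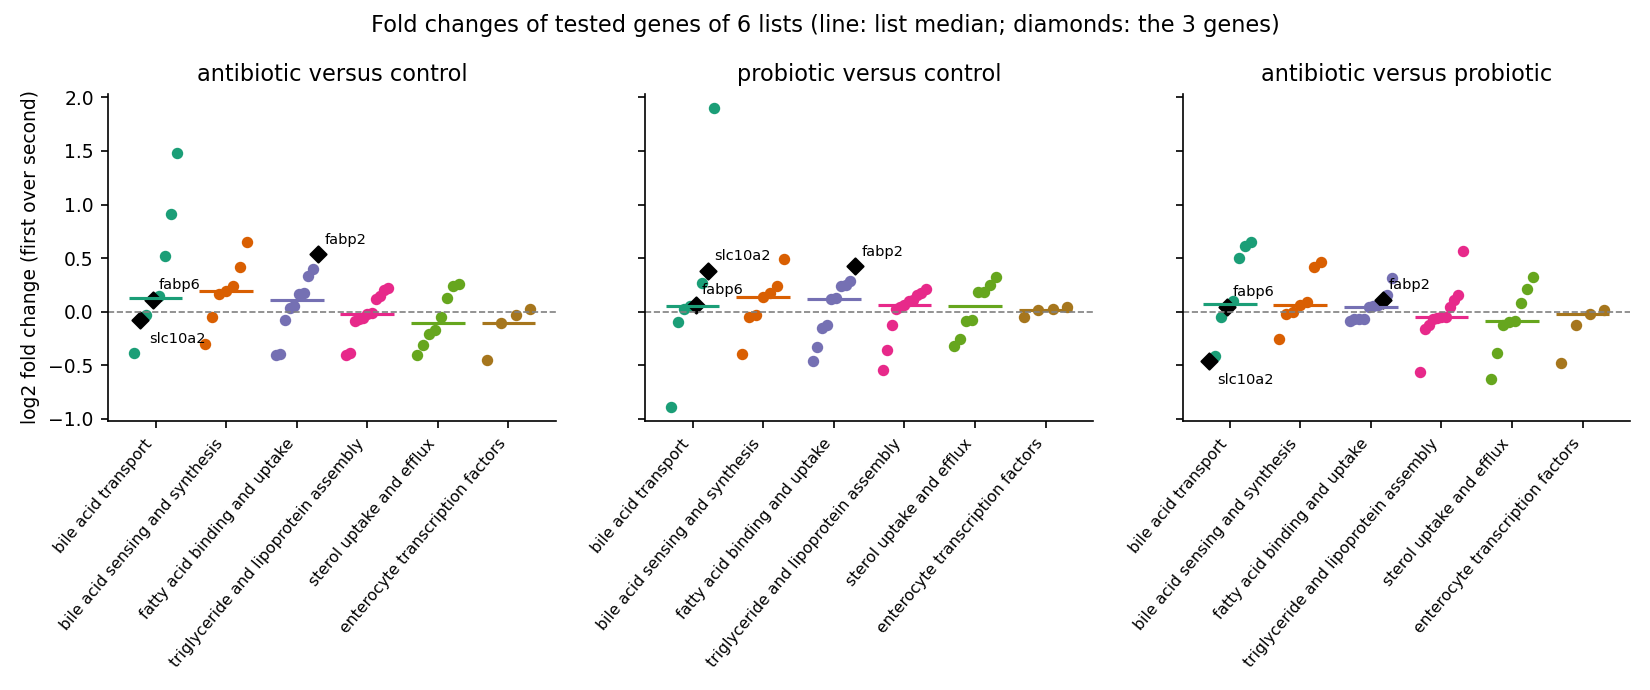
Log2 fold changes, first-named group over second, of tested genes of 6 lists in the 3 comparisons. Points are genes, coloured by list, lines are medians over all tested genes of a list and black diamonds are slc10a2, fabp6 and fabp2. All list medians lie between -0.11 and 0.19, and abcc3 at 1.49 and 1.90 is the highest point against controls.

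Some fish were the highest or the lowest of the 17 in several genes of the 6 lists. Of the 49 tested genes, abx67B was the highest in 11 (22.4%, against 7.71% of all 30221 tested genes), among them fabp6, fabp2, akr1d1 at 204 CPM (median of 17 fish 54.8 CPM), slc27a4 at 153 CPM (median 66.3 CPM) and abcb11a at 13.3 CPM (median 4.04 CPM). Control ctl12C, second in fabp6, was the highest in 8 (16.3%, against 7.43%), among them abcg8 at 574 CPM (median 223 CPM), abcg5 and amacr. Control ctl35B was the highest in 6 (12.2%, against 5.2%). Probiotic fish pro115B was the highest in 6 (12.2%, against 8.93%) and the lowest in 4 (8.16%, against 8.29%). Most often the lowest were ctl35C, in 9 (18.4%, against 8.18%), and pro115C, in 8 (16.3%, against 8.46%). The fish were named for these counts, and abx67B had already been set apart by fabp2 and fabp6, which are among its 11. These shares describe single fish and were not tested.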

How the data were processed

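The deposited table holds raw counts per gene and library. The authors used Trimmomatic 0.38, HISAT2 and featureCounts, per the submitters' processing notes. Other versions, the strand setting and the handling of multi-mapping reads are not stated there. Libraries were made from total RNA and sequenced as read pairs, per the labels' protocols. The deposited length column holds bases of merged exons.

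The 1 entry without a gene name was left out. The filter (filterByExpr) kept 30221 genes. Counts were scaled by TMM, and log2 CPM used a prior count of 2. Groups were compared with edgeR's robust quasi-likelihood F-test, 2-sided, in 1 fit of 17 libraries, with Benjamini-Hochberg adjustment over all tested genes. SE is the fold change divided by the root of F. Correlations used 100000 permutations. Symbols came from the table or, for 6084 of 38153 LOC identifiers, from the reference table, which was used for names only. Pathway genes were named by level (the 3 highest per list) and smallest p, and others after their values were seen. The values of 1 list gene are not reported here. The genes and lists were chosen with earlier results of these data known. The fit was tested on simulated data. The changes put into them were larger than those estimated for slc10a2, fabp6 or fabp2 with all fish. The simulation therefore does not show whether changes of that smaller size would be called. Alternatives were other scalings, filters, tools, covariates and sets of fish. The software was edgeR 4.0.16, DESeq2 1.42.0 and limma 3.58.1 in R 4.3.3, with scipy 1.17.1 for correlations.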

Additional observations from a re-analysis of the deposited data

Results flagged for a closer look

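In 42 group-by-gene sets (14 genes, 3 groups), 10 held a fish set apart from the rest of its group by Dixon's criterion, which chance meets in about 1 of 20 sets of normal values. The criterion was applied to CPM, where high values are spread wider. Over all 30221 tested genes 8.81% of such sets met it, 84.4% of these through a high fish, and on the log2 scale 6.72% did. In all 10 sets below the fish set apart was a high one, and pro115B and ctl12C came up more than once. Part of the 14 genes had been named for a small p, so the count says nothing about these genes as a set. Control ctl12C had 4610 CPM of fabp6, with the other controls at 1070 to 2230 CPM. Antibiotic fish abx67B had 150 CPM of fabp2, with the others at 14.3 to 24.6 CPM, and probiotic fish pro115B had 148 CPM, with the others at 14.5 to 37.0 CPM. The same fish pro115B had 370 CPM of creb3l3a (others 152 to 215 CPM) and 174 CPM of apoeb (others 31.3 to 76.0 CPM). Antibiotic fish abx91A had 229 CPM of apoeb (others 64.9 to 101 CPM) and control ctl35B 214 CPM (others 50.3 to 104 CPM). Control ctl12C had 87.6 CPM of amacr (others 27.1 to 48.7 CPM) and control ctl35C 44.1 CPM of nr1i2 (others 27.4 to 31.7 CPM). Probiotic fish pro139A had 6.53 CPM of npc2.1 (others 1.45 to 2.89 CPM).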

How the results depend on the processing

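No paired analysis was possible because no title number is shared between groups. The direction of slc10a2 in probiotic fish held in all 30 alternatives, at 0.27 to 0.52 against controls and, for antibiotic against probiotic fish, at -0.67 to -0.38; exact permutation gave -0.45 (unadjusted p = 0.0476). Against controls in antibiotic fish it was -0.22 to 0.028 with 1 fish left out, above 0 without ctl12A. Directions of fabp6 and fabp2 turned often, and the causes were not tested. For fabp6, antibiotic against control, values were -0.044 by limma voom, -0.055 with title number as a random block, -0.28 with index column, -0.29 with smooth muscle, -0.40 without abx67B and pro115B, -0.04 as a difference of mean log2 CPM, and -0.40 to 0.40 with 1 fish left out (below 0 without abx67B or ctl35B). For fabp6, probiotic against control, they were -0.36 with smooth muscle, -0.13 without abx67C, abx91B, pro139B and pro139C, and -0.18 to 0.37 with 1 left out. For fabp6 between the treatments they were -0.083, -0.094 and -0.50 (voom, block, column), -0.62 without abx67B and pro115B, -0.088 as a difference of means, and -0.46 to 0.28 with 1 left out. For fabp2 against controls voom gave -0.072 and -0.16, the block -0.082 and -0.17, the difference of means -0.076 and -0.12, and removing abx67B and pro115B -0.71 and -0.58, in antibiotic and probiotic fish; leaving out 1 fish gave -0.71 to 0.75 and -0.58 to 0.62. Between the treatments fabp2 was -0.065 with smooth muscle, -0.12 without abx67B and pro115B, and -1.14 to 1.10 with 1 left out. The index column turned gata5 between the treatments to 0.032, and removing abx67C, abx91B, pro139B and pro139C turned amacr to 0.022.

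edgeR called 0 genes in each comparison. DESeq2 called 26, 35 and 18 genes in antibiotic against control, probiotic against control and antibiotic against probiotic fish. None of them was slc10a2 or fabp6, and fabp2 got no p there. The index column gave 1 call (antibiotic against control), a fit of only probiotic and control fish 1, and leaving out 1 fish 0 to 1 (1 for probiotic against control without ctl12A or without abx67B). Counts at an unadjusted p under 0.05 were 1877, 2935 and 1827. For probiotic against control they became 4445 with the index column, 1852 with smooth muscle, 1810 without abx67C, abx91B, pro139B and pro139C, 5153 without abx67B and pro115B, and 1844 to 4687 with 1 fish left out (1844, 1919 and 1930 without pro115C, pro139C and ctl35C, 4445 without ctl12C and 4687 without pro115B). Between the treatments they became 2831 with no filter, 4821 with the index column, 4234 without abx67B and pro115B and 2921 without abx67B. Of the 60 alternative correlations 6 changed sign: slc10a2 with fabp6 (0.092) and fabp6 with fabp2 (-0.41) without the 2 farthest fish, the lysosome-rich score with slc10a2 (-0.048) and fabp6 (-0.26) under library size scaling, and, without abx67C, abx91B, pro139B and pro139C, that score with slc10a2 (-0.034) and the absorptive score with fabp2 (0.034). There, smooth muscle with fabp6 was -0.64 and no longer passed.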
